A study of Rattus norvegicus with 10 samples.

Results

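The 9 genes described here encode proteins of central myelin and of the oligodendrocytes that make it: *Mbp*, *Mog*, *Mag*, *Mobp*, *Cnp*, *Opalin*, *Cldn11*, *Ermn* and *Mal*. They were chosen by symbol, and all 9 were found, each in a single row, among the 12828 genes of the deposited table. RNA was taken from the arcuate nucleus (ARC) of the hypothalamus of 10 Wistar rat dams at parturition. Of these, 5 dams had been fed 5X folic acid (5X-FA) during pregnancy and 5 had been fed 5X methylfolate (5X-MTHF), so that both groups received folate above the recommended level. The region was cut freehand from frozen coronal slices, and poly-A RNA of the whole piece was sequenced. The study asked whether the 2 forms of folate differ in their effect on hypothalamic expression.

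The level used for each gene is the authors' average log2 CPM (the reads counted on a gene, scaled by the total reads of a library and put on a log2 scale) over all libraries, a single value that joins both diets and carries no SD. The headings of 10 per-sample columns name no dam in the labels, and those columns were left aside, so no value per dam and no difference between 5X-MTHF and 5X-FA dams is given for any gene. How deeply each dam was sequenced is unknown from this average. In a bulk piece of tissue, more oligodendrocytes and more RNA per oligodendrocyte cannot be told apart.

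Oligodendrocytes wrap axons of the central nervous system in many layers of membrane, which insulate the axon and let impulses jump between nodes. Where the layers are compacted, the cytoplasmic faces are held together by myelin basic protein. Other proteins sit in the innermost layer facing the axon, on the outermost layer, or in the cytoplasmic channels that stay uncompacted. The genes for these proteins are switched on late, as a precursor cell leaves division, exits its immature state and becomes a myelinating cell, under transcription factors that include SOX10 and MYRF.

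The promoters of these genes were compared first, since they are the only sequence at hand. RefSeq promoters on the GRCr8 build, each holding 250 bases before and 50 after a gene start, were matched by symbol for 7 of the 9 genes, with 2 starts for *Mbp*. *Mog* and *Ermn* were not matched. The 250 bases before the start were searched on both strands for 4 groups of short words. The SOX core was searched as ACAAAG or ACAATG, the MYRF core as CTGGCAC or CTGGTAC, an E-box of the kind that bHLH factors such as OLIG2 bind as CAGATG or CAGCTG, and the TATA box as TATAAA. No word contains another, so no match belongs to more than 1 group.

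A MYRF core word was present before 5 of the 7 genes, namely *Mag*, *Opalin*, *Cldn11*, *Mal* and *Cnp*. Over all 33469 promoters of the same length the share was 5.48%, and over the 9445 genes of the deposited table that had a promoter it was 5.81%. These shares, like those given below for the other words, were not matched for G and C content. That content had a median of 61.2% in the promoters of these genes and 51.2% in all promoters. Each of the 5 genes held 1 such word. It began 94 bases before the start in *Mag*, 17 in *Opalin*, 120 in *Cldn11*, 126 in *Mal* and 124 in *Cnp*. In 3 genes the word thus lay within a few bases of the same distance from the start, while that of *Opalin* lay closest to it. The stretches around these words are shown because 5 of the 7 matched genes hold such a word, which few promoters in all do, with the word in capitals and up to 40 bases of either side in lower case, written 5′ to 3′ on the strand of the gene. Where the capitals read GTGCCAG or GTACCAG, the word lies on the opposite strand. The *Mag* stretch is chr1:95291092-95291178 on the minus strand, that of *Opalin* chr1:249858191-249858247 on the minus strand, that of *Cldn11* chr2:114149613-114149699 on the minus strand, that of *Mal* chr3:135341503-135341589 on the minus strand, and that of *Cnp* chr10:86011340-86011426 on the plus strand.
Mag: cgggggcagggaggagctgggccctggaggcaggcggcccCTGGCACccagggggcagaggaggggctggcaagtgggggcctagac
Opalin: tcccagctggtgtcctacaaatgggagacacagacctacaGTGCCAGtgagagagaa
Cldn11: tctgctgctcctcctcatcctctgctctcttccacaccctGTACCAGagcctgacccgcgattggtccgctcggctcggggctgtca
Mal: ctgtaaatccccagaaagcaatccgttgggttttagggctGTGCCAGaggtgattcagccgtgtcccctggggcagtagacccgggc
Cnp: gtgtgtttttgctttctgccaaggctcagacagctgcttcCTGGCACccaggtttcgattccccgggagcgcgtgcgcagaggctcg

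A SOX core word was also present before 5 of the 7 genes, in *Cnp*, *Mag*, *Mbp*, *Mobp* and *Opalin*, beside 25.3% of all promoters and 17.4% of the genes of the table. Among the 7 genes *Mobp* held the most, with 8 copies of ACAAAG, all on the opposite strand, between 242 and 120 bases before the start. Copies per promoter were not counted over all promoters. *Mbp* and *Opalin* held 3 SOX words each, and *Cnp* and *Mag* held 1 each. In *Mbp* they lay only before the downstream of its 2 starts, and the 250 bases before the upstream start held no word of any group. The *Mobp* stretch, chr8:128746990-128747117 on the plus strand of GRCr8, is shown for its repeats, with each copy in capitals as the gene's strand reads it.
Mobp: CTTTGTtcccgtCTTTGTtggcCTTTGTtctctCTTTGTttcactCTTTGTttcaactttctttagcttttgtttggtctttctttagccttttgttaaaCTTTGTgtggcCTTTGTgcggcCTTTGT

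The 8 copies formed a run of 5 and a run of 3. An E-box word was found in 3 of the 7 genes (*Cnp*, *Mbp* and *Opalin*), beside 24.3% of all promoters and 21.1% of the genes of the table. TATAAA was found in 0 of 7, beside 12.9% of all promoters and 6.77% of the genes of the table. The G and C content of the 250 bases had a median of 61.2% over the 8 promoters of these genes, from 41.6% in *Mobp* to 70.0% in *Mag*, and a median of 51.2% over all promoters. A match is a description of letters, not of binding, and the counts carry no test.

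**Figure D1:**
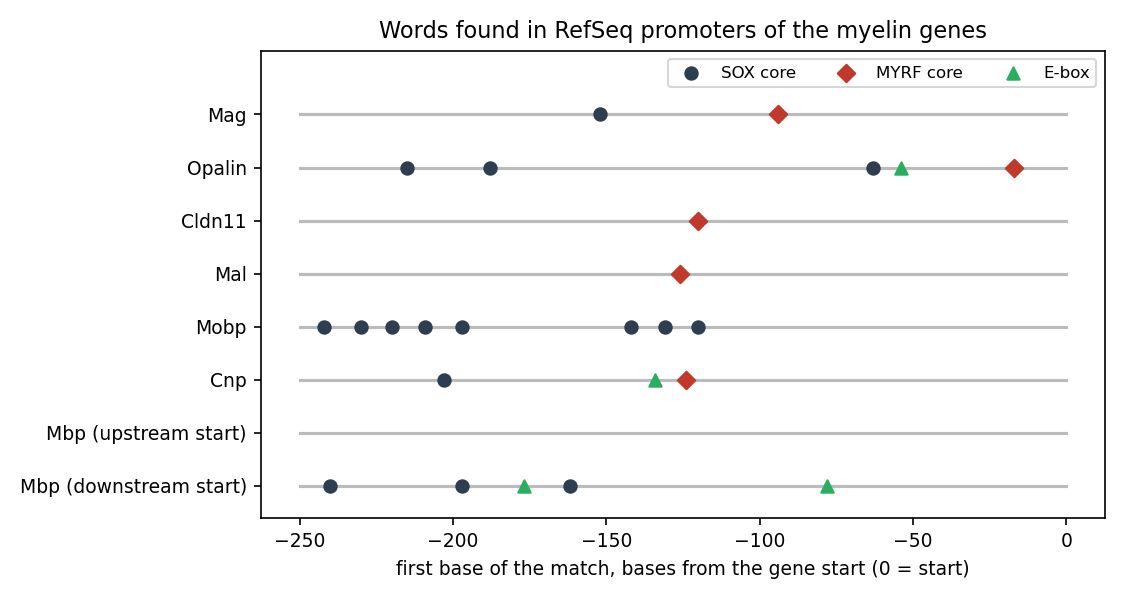
Position of each matched word in the 250 bases before the gene start, with bases from the start on the horizontal axis and 1 line per RefSeq promoter (2 for *Mbp*). Diamonds mark MYRF core words, present once in 5 genes, circles mark SOX core words, of which *Mobp* has 8, and triangles mark E-box words.

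All 9 genes had an average log2 CPM above the median of all genes, which was 4.94. Their own median was 8.62, and 7 of the 9 were among the highest 10% of genes in the table. Together they held 9365 CPM, or 0.935% of the summed CPM of all genes. These are shares of reads, and CPM is not divided by length, so a gene with a longer transcript collects more reads from the same number of molecules.

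*Mbp*, which encodes the basic protein that seals the cytoplasmic faces of compact myelin, drew by far the most reads. Its average log2 CPM was 12.59, or 6161 CPM, and only 8 of the 12828 genes had a higher value. It alone made up 65.8% of the reads of the 9 genes. *Mobp*, which encodes another small basic protein of compact myelin, followed at 9.90 on the log2 CPM scale, or 955 CPM. The read share of *Mbp* was thus 6.45 times that of *Mobp*.

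*Cnp* encodes a phosphodiesterase of the uncompacted cytoplasmic channels of myelin. It had an average log2 CPM of 9.18, or 582 CPM, and followed *Mobp* in the order of reads. *Mal*, a membrane protein that sorts membrane proteins to myelin, was at 8.70 on the log2 CPM scale. *Cldn11*, the claudin that forms the tight junctions between myelin layers, was at 8.62. *Mag*, an adhesion molecule of the innermost layer that faces the axon, was at 8.50. These last 3 genes lay within 0.20 log2 CPM of one another. With no value per dam, whether genes so close in this order differ beyond the spread between animals was not tested.

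The lowest read shares among the 9 belonged to *Ermn*, *Mog* and *Opalin*. *Ermn* encodes ermin, an actin-binding protein of late oligodendrocytes, and had an average log2 CPM of 7.56, or 189 CPM. *Mog*, whose protein lies on the outermost surface of the sheath and is a known target of antibodies in demyelinating disease, was at 7.26, or 153 CPM. *Opalin*, which encodes a glycoprotein of the oligodendrocyte membrane, was at 7.25, or 152 CPM. *Mog* and *Opalin* differed by 0.02 on the log2 CPM scale and stood at ranks 1325 and 1346 of all genes, just outside the highest 10%, which began at 7.29. The read share of *Mbp* was 40.6 times that of *Opalin*.

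**Figure D2:**
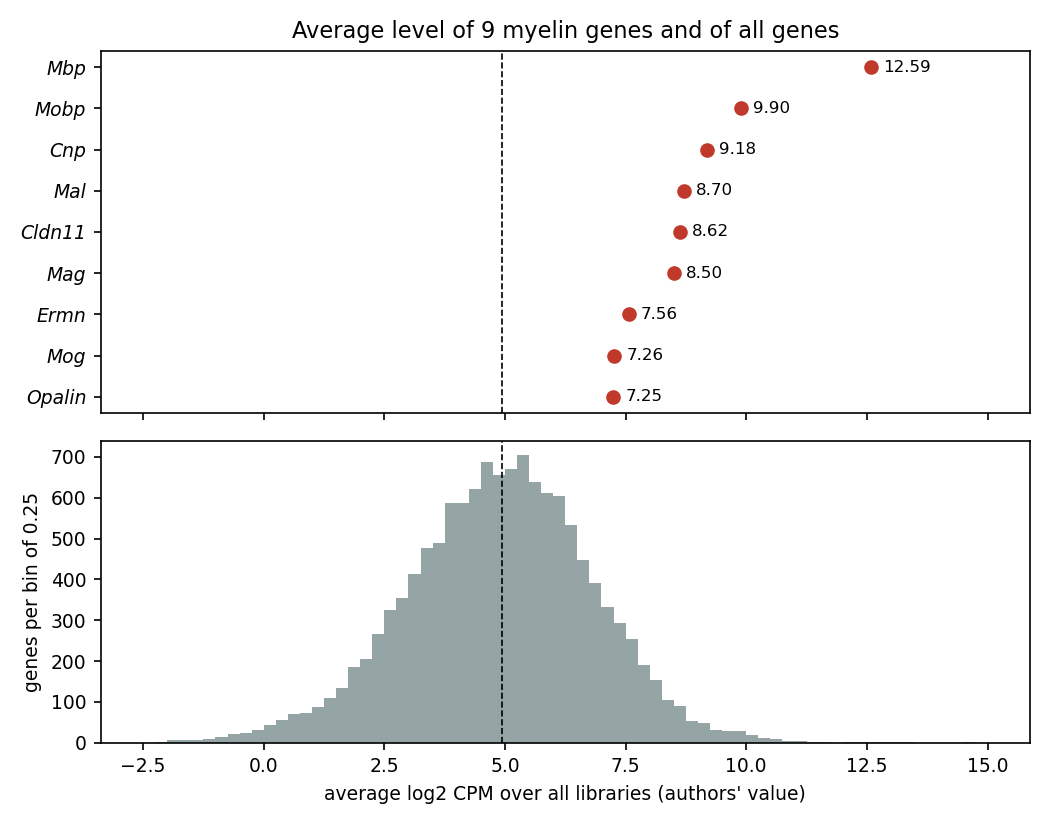
Upper panel, the authors' average log2 CPM of each of the 9 genes, without an error since it is 1 value per gene; lower panel, the number of genes of the table per bin of 0.25 on the same axis. The dashed line is the median of all genes, 4.94, and the 9 genes lie between 7.25 and 12.59, all to its right.

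To compare the genes per length, the CPM of each gene was divided by its span in kb and the result put back on the log2 scale. A value of log2 CPM per kb is thus the log2 of CPM per kb. The span runs from the first to the last base of the gene on Rnor_6.0. This span includes introns, which poly-A reads mostly skip, so it is a coarse measure, and transcript lengths were not used here. Among these genes the span ran from 6.56 kb for *Cnp* to 111 kb for *Mbp*, and its median over all genes was 21.5 kb. On this scale *Cnp* came first, with 6.47 log2 CPM per kb of span, and *Mbp* second with 5.80. *Mobp* (5.21), *Cldn11* (4.89), *Mag* (4.57), *Mal* (4.12), *Mog* (3.91), *Ermn* (3.39) and *Opalin* (3.10) followed. The median of all genes was 0.61 log2 CPM per kb of span, so that all 9 genes were again above it. The distance between the highest and the lowest of the 9 shrank to 10.3-fold.

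The place of each gene in the table shifted between the scales. *Mbp* exceeded 99.9% of all genes by reads and 98.1% per kb of span. *Cnp* exceeded 98.7% and 98.9%, and *Mog* exceeded 89.7% and 92.0%. *Mal* had the widest gap, from 97.9% by reads to 93.2% per kb of span. *Opalin* was lowest on both scales, above 89.5% of genes by reads and 86.7% per kb of span.

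**Figure D3:**
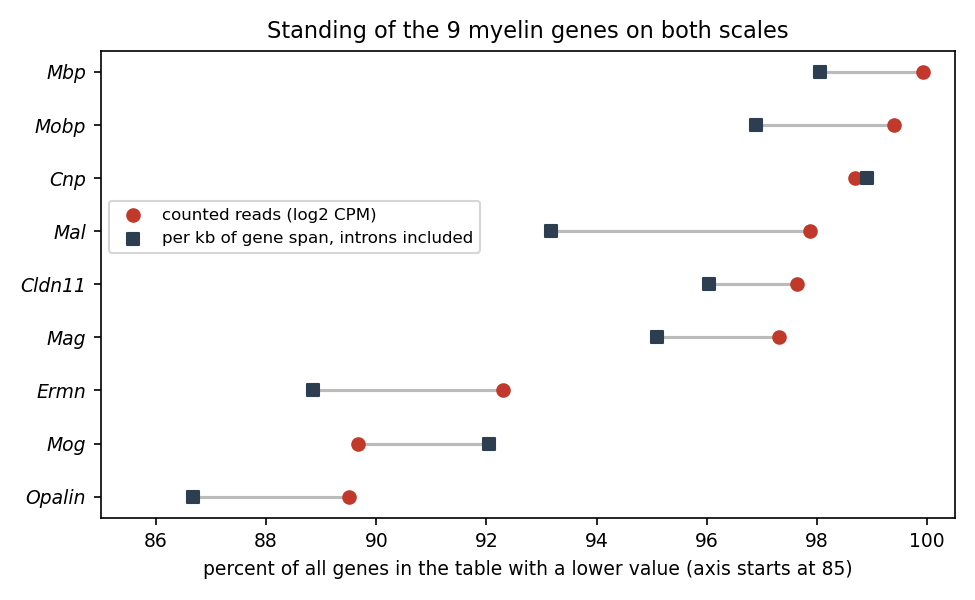
Percent of all genes in the table with a lower value than each of the 9 myelin genes, by counted reads (circles) and per kb of gene span (squares); the axis starts at 85%. *Cnp* and *Mog* stand higher per kb of span than by reads, and the other 7 stand lower.

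All 9 genes are annotated as protein-coding, and they lie on 7 chromosomes of Rnor_6.0. *Mbp* is on chromosome 18 from 79326738 to 79437310, *Mobp* on chromosome 8 from 128824508 to 128850358 and *Cnp* on chromosome 10 from 88490798 to 88497356. *Cldn11* is on chromosome 2 from 115823538 to 115836846 and *Mog* on chromosome 20 from 2004052 to 2014286. Chromosome 3 holds *Ermn* from 44068057 to 44086022 and *Mal* from 120209647 to 120233655, and chromosome 1 holds *Mag* from 89345429 to 89360733 and *Opalin* from 260324028 to 260341723. The genes of each such pair are far apart, so no 2 of the 9 share a neighbourhood.

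Within 50 kb of a member the table listed 15 other genes, around 7 of the 9. None was listed around *Ermn* or *Opalin*. The median log2 CPM of these neighbours was 4.96, close to that of all genes. On this scale, which is not divided by length, 14 of the 15 were below the myelin gene they adjoin. The 9 myelin genes exceeded from 89.5% to 99.9% of all genes, so most genes taken from anywhere in the table would also be below them. *Dnajc7*, which starts 881 bases beyond the end of *Cnp*, was at 7.60. *Ttc25*, 2560 bases on its other side, was at 1.74. The exception was *Gabbr1*, a subunit gene of the GABA-B receptor in the extended major histocompatibility region, which lies 19188 bases from *Mog* and at 10.32 was 3.06 above it. On its other flank *Mog* overlaps *Zfp57* (4.48) by 117 bases. The table gives no strand, so how reads in these shared bases were assigned cannot be seen from it. Neighbours were named after their values were seen.

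Genes of the same lineage were described by lists. Among 22 other proteins of compact and non-compact myelin, all were found and 17 were above the median of all genes. Their median log2 CPM was 6.64. *Nfasc* (8.99), *Plekhb1* (8.28) and *Tspan2* (8.18) were among the highest. *Nfasc* encodes the neurofascins of the node and paranode and *Tspan2* a tetraspanin of the myelin membrane, and *Nfasc* is also expressed by neurons. The lowest of this list was *Ninj2*, at 3.04.

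Myelin is rich in galactolipids and cholesterol, whose synthesis depends on enzymes that other cells also use. The list of 16 lipid enzyme genes also holds some of general fatty acid synthesis, such as *Fasn* and *Scd2*. Of the 16, 13 were above the median of all genes, with a list median of 6.53 log2 CPM. The desaturase gene *Scd2* was highest at 12.11, followed by the sterol enzyme *Hmgcs1* at 8.72 and the fatty acid synthase *Fasn* at 8.69. *Ugt8*, which makes the galactosylceramide of myelin, was at 7.97. *Gal3st1*, which turns galactosylceramide into sulfatide, had the lowest value of the list, 3.39.

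The median of 10 transcription factors of the lineage was 5.29 log2 CPM, and 6 of the 10 were above the median of all genes. *Myrf*, which drives the late myelin program, was at 7.33, *Olig1* at 7.32, *Sox10* at 6.09 and *Olig2* at 5.62. *Zfp488* was lowest at 2.42. Genes of newly formed oligodendrocytes had a median of 5.21 over 8 genes, from *Enpp6* at 3.51 to *Bcas1* at 8.51. *Fyn* (7.08), *Sema4d* (6.58) and *Tcf7l2* (5.28) were the next highest, and neurons also express *Fyn*.

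Of 10 genes of oligodendrocyte precursors, 8 were found, with a median of 6.52. *Ptprz1* was at 8.85, *Olig1* at 7.32, *Tnr* at 7.05 and *Pdgfra*, the receptor that keeps precursors dividing, at 7.01. *Olig1* is on the lists of transcription factors and precursors, *Gpr17* on those of newly formed oligodendrocytes and precursors, and *Tcf7l2* on those of transcription factors and newly formed oligodendrocytes as well as among the thalamic markers. Astrocytes also express *Ptprz1*. The other 2 were not analysed here. Per kb of gene span the medians spread further, from 4.57 for the 9 myelin genes to 0.58 for the precursor genes and -0.70 for those of newly formed oligodendrocytes, beside 0.61 for all genes. The other myelin proteins (2.57), the lipid enzymes (2.62) and the transcription factors (2.53) were close to one another on this scale. Because the span counts introns, genes with long introns stand low on it. By reads, the medians of the precursor genes (6.52) and of those of newly formed oligodendrocytes (5.21) were above that of all genes (4.94).

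Markers of other cells and regions were set beside them. Peripheral myelin is made by Schwann cells, and of 6 of their markers only *Pmp22*, which other cells also express, was found, at 5.49 log2 CPM. The other 5 were not analysed here. The median was 9.68 for 8 astrocyte markers, 9.15 for 7 neuronal markers, 5.87 for 5 endothelial markers and 4.46 for 7 microglial markers. Summed over each list, astrocyte markers held 0.594% of all CPM, neuronal markers 0.605%, microglial markers 0.0255%, and the 9 myelin genes 0.935%. These sums depend on which genes each list holds and do not give shares of cells.

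For the labelled region, 9 of 10 ARC markers were found, from *Kiss1* at 0.08 to *Sst* at 6.35 log2 CPM. Their median of 4.34 was below that of all genes (4.94), with 3 of the 9 above it and 6 not. The proopiomelanocortin gene *Pomc* was at 4.67, *Agrp* at 1.42 and *Ghrh* at 1.02. *Npy* was not analysed here. Genes listed as markers of other regions were also present in this average, which does not by itself show tissue of those regions. The median was 5.19 for 6 striatal markers, 4.79 for 5 thalamic markers and 2.87 for 4 markers of cortex and hippocampus. For 3 markers of tanycytes and ependyma, which are cell types and not a region, it was 3.10. What part tissue of other regions has in the level of the myelin genes was not tested.

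**Figure D4:**
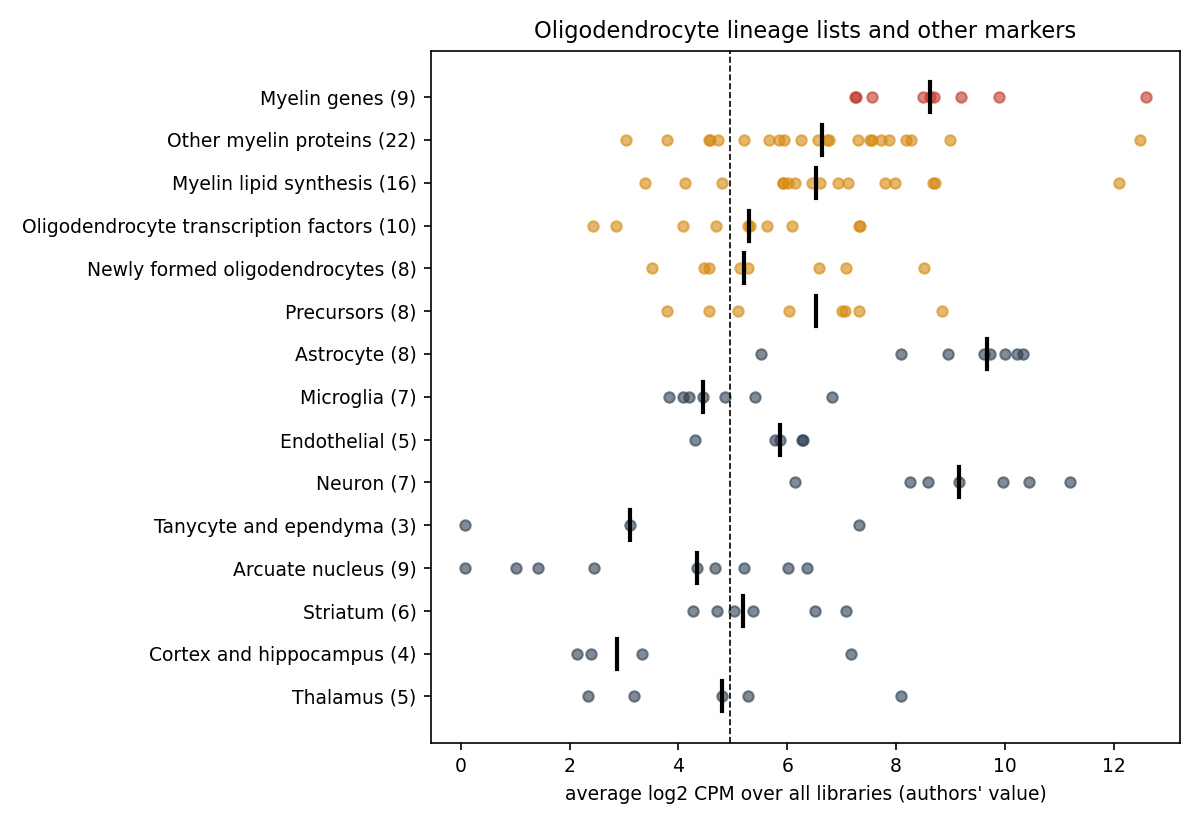
Authors' average log2 CPM of each gene (points) in the myelin list, in 5 further lists of the oligodendrocyte lineage and in markers of other cells and regions, with the number of genes in brackets, the list median as a black bar and the median of all genes as a dashed line. The 9 myelin genes lie to the right of the dashed line, their median of 8.62 above those of the 5 other lineage lists. The medians of the astrocyte (9.68) and neuronal (9.15) markers are higher, and all genes of both lists also lie to the right of the line.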

How the data were processed

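The libraries came from the ARC of 10 dams, grouped by diet from the labels (5 each). Per the labels and the study's methods, reads were trimmed with Trim Galore 0.5.0, aligned with STAR 2.6.0c to the Rnor_6.0 build and assigned to Ensembl genes by HTSeq 0.6.1p2, and genes with few reads were removed. The column used was deposited by the authors as logCPM, 1 average log2 value per gene over all libraries. The base was settled from the values, since 2 raised to them summed to 1002152 over the 12828 rows, close to the total that CPM values have. The tool behind this column is not given in the sources used here. The 10 per-sample columns bear headings that match none of the labels and entered no step. The authors' columns of fold change, F statistic, p-value and FDR for the diet comparison were not used either.

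Percentiles are the share of genes in the table with a lower value. Span is the distance from first to last base of a gene in the table. Genes of the lists were matched by symbol, and 22 rows repeat a symbol. Up to 4 genes per list, those with the highest average level, were named, except where one is not reported here, and any other (the lowest of a list, the ARC peptides and the neighbours) was chosen after its values were seen. The planned test of the diets needed values per dam and was replaced by this description. The members and lists were chosen with earlier results of these data known. Promoters are those of RefSeq on GRCr8, and the words searched were chosen without a fixed plan. The percentile calculation was checked on numbers with known ranks. Calculations were made in Python 3.11.15 (pandas 2.3.3, numpy 2.4.6, scipy 1.17.1), and plots with matplotlib 3.10.9.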

Additional observations from a re-analysis of the deposited data

How the results depend on the processing

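The median percentile of the 9 myelin genes was 97.6 among all genes of the table, 97.6 among the 12383 protein-coding genes and 97.6 among the 12462 genes whose log2 CPM was 1 or more. With the level per kb of gene span it was 95.1. Moves were judged against the 95% Wilson interval of the percentile as a share of genes, which says nothing of the spread between dams. It treats the genes of the table as a sample and served only as a yardstick. By that measure the percentiles of all 9 genes moved per kb of span, 2 upward (*Cnp* and *Mog*) and 7 downward. None moved under the other choices of genes, but these kept 12383 and 12462 of the 12828 genes, so a move was hardly possible there. The span alternative counts introns as length, and the size of the move of *Mbp* also depends on which of its 2 starts bounds the span. With the 50 bases after the start added, a choice made after seeing the data, the number of genes with a word of each group was the same, while the share of all promoters with a MYRF core word was 6.78%. No paired analysis was possible because the per-sample columns carry no label that matches a dam. For the same reason the alternatives planned for the test of the diets (its low-value filter, pseudocount, scaling and the fits without 1 dam) were not run. The depth of the libraries is unknown from the average used, so no counting interval is given.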
